A study of Homo sapiens with 38 samples.

Results

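The 5 unedited control libraries of RWPE-1, an immortalized and non-tumorigenic line of human prostate epithelium, were divided into controls 1 and 2 and controls 3, 4 and 5, out of 36 RNA-seq libraries and 38 samples in the series. The division rests on measured expression, above all on genes at the end of the long arm of chromosome 17, called distal 17q here. Every difference between the sets is therefore a description of 2 libraries against 3, with no test, and no count of genes that differ is taken as support for the division.

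The study deleted a region of 7p15.2 tied to the risk of prostate cancer in RWPE-1 cells, overexpressed the homeobox gene HOXA13 in others, and mapped chromosome contacts in untreated cells by Hi-C. All 5 controls carry the labels wild type and Genome Editing, and the labels do not say whether they came from separate clones, cultures or passages, so the spread between them may be technical or biological. Other RWPE-1 libraries used below were 7 with the 7p15.2 deletion, 3 transfected with a HOXA13 expression vector, and 3 transfected with an eGFP plasmid as their wild type control. The transfected cells were harvested 48 hours after transfection with only the brightest 10% for eGFP kept by sorting, so those libraries differ from the 5 controls in handling, and the HOXA13 libraries also in the expressed vector.

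Cultured epithelial lines drift, and a line can hold lineages that gained or lost a chromosome arm. A gene present in fewer copies usually gives less RNA, and genes of one chromosome stretch then tend to shift together. Interferons are secreted alarm signals that act through receptors, JAK kinases and a complex of transcription factors that includes STAT2 and IRF9, which switches on antiviral genes through a short promoter element.

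Values are TPM, transcripts scaled to a fixed total per library and corrected for length, and the table holds no read counts, which leaves the sequencing depth per library unknown. Differences are controls 1 and 2 minus controls 3 to 5 in mean log2(TPM + 1), a scale that understates the change of low genes. Of 60211 genes, 14537 reached 1 TPM in at least 2 of the 5 controls. Between 13818 and 14209 genes reached 1 TPM in a control, and the 10 most abundant genes held 13.5% to 15.9% of its TPM. All 5 libraries had the profile of basal epithelium: the basal keratin gene KRT5 lay between 5962 and 10310.3 TPM, KRT14 between 2843 and 6151 TPM and the basal factor gene TP63 between 34.0 and 117 TPM. The luminal and secretory genes KLK3 and FOLH1 were listed at 0 in all 5, as were the fibroblast genes COL3A1, DCN and LUM and the leukocyte genes PTPRC, CD3E and TYROBP. Other markers of those lists were detected: the luminal keratin genes KRT8 and KRT18 lay between 144 and 460 TPM and between 184 and 294 TPM, and the collagen gene COL1A1 between 2.58 and 7.90 TPM. CD14 and CD68, genes used as monocyte and macrophage markers, were higher in controls 1 and 2. CD14 had 11.9 and 10.4 TPM in controls 1 and 2, against 1.64, 4.51 and 5.72 TPM in controls 3, 4 and 5, and CD68 had 40.8 and 50.4 TPM, against 9.88, 19.2 and 24.5 TPM.

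Controls 1 and 2 were close to each other, whereas controls 3, 4 and 5 were spread. Only 230 genes differed at least 2-fold between controls 1 and 2. Within the other set, 788 genes differed at least 2-fold between controls 3 and 4, 736 between controls 3 and 5 and 842 between controls 4 and 5. Across the sets, control 1 differed from controls 3, 4 and 5 at 1042, 690 and 919 genes, and control 2 at 1069, 716 and 954 genes. By these counts control 4 was no farther from controls 1 and 2 than from its own set. By the median absolute difference over genes it was farther from control 2 (0.246) than from controls 3 (0.203) and 5 (0.211), and was at 0.207 from control 1.

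A gene was counted as different where its difference was at least 2-fold and the sets did not overlap. By this count 462 genes (3.18% of those tested) differed, 338 (2.33%) higher and 124 (0.853%) lower in controls 1 and 2. Without a minimum size, 2212 genes (15.2%) were higher and 3275 (22.5%) lower with no overlap. Nothing is read from these shares, since the same values made the division. The median over all genes was -0.04. Genes just past the 2-fold limit included ITGB8, ABCG1 and MEIS1 with differences of 1.00, 1.00 and 1.01, and those just short of it included MRPL38, PLCXD2 and GGA3 with -0.9999, -0.998 and -0.998.

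Distal 17q was taken as the run of 6 windows at the end of chromosome 17, each of 62 neighbouring tested genes, in which both controls 1 and 2 lay below controls 3, 4 and 5. It holds 372 tested genes. Its median difference was -0.45, with quartiles of -0.65 and -0.13, which is a level ratio of 0.731. Of the 372 genes, 305 (82%) had a difference below 0, 229 (61.6%) were lower without overlap and 25 were higher without overlap. Over all genes tested, 56.5% had a difference below 0 and 15.2% were higher without overlap. The windows were picked for being lower in controls 1 and 2, so an excess of lower genes follows in part from that choice. The other 434 tested genes of chromosome 17 had a median of -0.05, and 22.8% of them were lower without overlap, close to the 22.5% of all genes.

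The shift set in within a pair of neighbouring windows. The first 7 windows differed by -0.10 to -0.01, the next by -0.13, and the one after it, from SP2-AS1 to AKAP1, by -0.47. From there to the end the differences were -0.49, -0.46, -0.49 and -0.56. The last 5 windows alone, a boundary chosen after seeing the data, held 310 genes with a median of -0.50, a ratio of 0.708, and 68.1% of them lower without overlap.

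**Figure D1:**
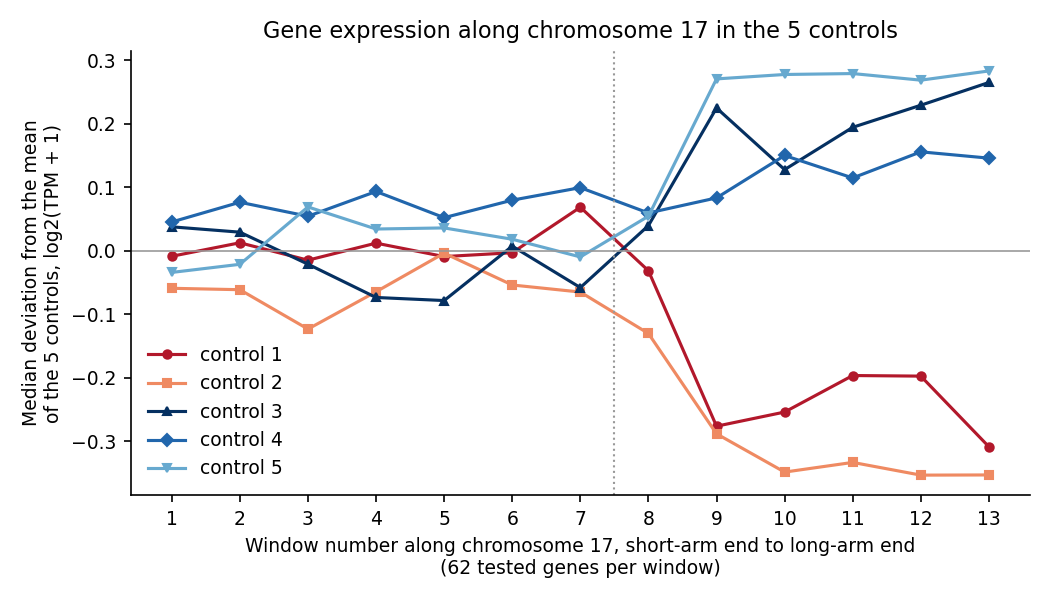
Median deviation of the genes in each window from the mean of the 5 controls, in log2(TPM + 1), for the 13 windows of chromosome 17 in order from the short-arm end to the long-arm end. The dotted line marks where distal 17q begins, and each line is 1 library. Controls 1 and 2 leave the other 3 at window 9 and stay below them to window 13.

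No other stretch of comparable size separated the sets. Of 217 windows in the genome, 44 (20.3%) were lower and 4 (1.84%) higher in controls 1 and 2 without overlap, but most of these shifts were small. Only 5 windows were lower without overlap by at least 0.3, and all 5 were the last 5 of chromosome 17. Outside chromosome 17, the largest difference without overlap was -0.27, from LY6E to C8orf33 on chromosome 8, where control 5 stood alone at 0.47 and the other 4 controls lay between -0.19 and -0.06.

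Genes of distal 17q supplied 1.95% and 1.91% of all TPM in controls 1 and 2, against 2.72%, 2.504% and 2.68% in controls 3, 4 and 5. The sets did not overlap, which adds nothing to the division, since the stretch was picked on these same libraries. The 7 deletion libraries, which had no part in the division, gave shares of 1.90% to 2.02%, and lay with controls 1 and 2. The HOXA13 libraries gave 2.88% to 2.90% and the eGFP libraries 2.77% to 2.81%, above all 5 controls.

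The median level of distal 17q genes relative to all other genes, centred on the 18 RWPE-1 libraries, describes the controls with the values that divided them. It was -0.20 in control 1 and -0.21 in control 2, against 0.23, 0.09 and 0.23 in controls 3, 4 and 5. Deletion libraries lay between -0.24 and -0.21, HOXA13 libraries between 0.22 and 0.27 and eGFP libraries between 0.15 and 0.19. Control 4 was the lowest of its set here, and it was the lowest of controls 3 to 5 at 181 of the 372 genes, against 125 for control 3 and 66 for control 5. Copy number was not tested. From bulk RNA, a loss in the low libraries, a gain in the high ones and a shift without a copy change cannot be told apart. Nor can a change in every cell and a change in part of the cells.

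**Figure D2:**
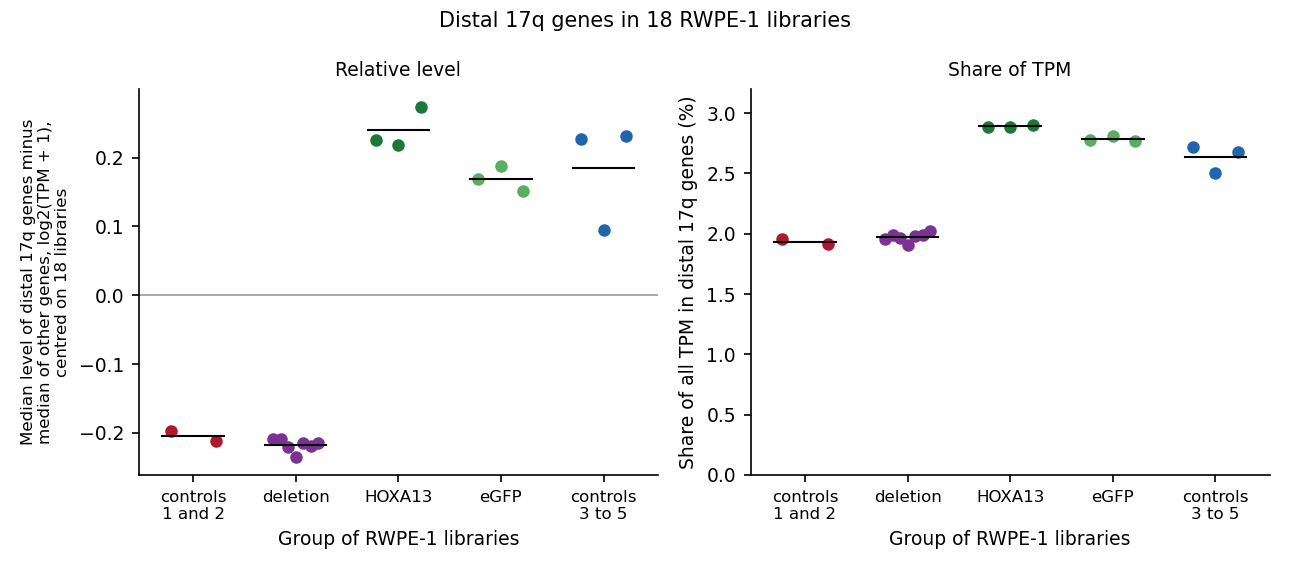
Distal 17q in 18 RWPE-1 libraries: left, the median level of its 372 genes minus that of all other genes in log2(TPM + 1); right, its share of all TPM in percent. Each point is 1 library and each bar the mean of a group; controls 1 and 2 and the 7 deletion libraries lie together, below the HOXA13 and eGFP libraries and controls 3 to 5.

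The 229 distal 17q genes that were lower without overlap were followed in the 13 libraries outside the division. For each, the midpoint between the set means served as the boundary. Deletion libraries lay on the side of controls 1 and 2 at 71.2% to 84.7% of these genes. HOXA13 libraries did so at 31.9% to 37.6% and eGFP libraries at 34.5% to 39.7%. The genes were chosen on the controls, so these shares describe those genes only.

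The Hi-C map of RWPE-1, which pools both replicates, was compared over an end stretch as long as the last 5 windows. The 25 bins of 40 kb on either side of the start of that stretch were left out. Bins of 40 kb in the last stretch of chromosome 17 had a median of 247 raw read pairs with chromosome 1, against 279 in the rest of chromosome 17, a ratio of 0.885. With chromosome 2, of which the file used here holds a part, the medians were 194 and 195, a ratio of 0.995. On 15 other autosomes the same ratio for a last stretch of equal length ran from 0.676 to 5.04 with chromosome 1 and from 0.654 to 2.04 with chromosome 2, on raw counts not corrected for mappability or base composition. The labels do not relate the Hi-C cells to any control library.

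Among the most abundant distal 17q genes, RPL38, which encodes a protein of the large ribosomal subunit, had 1559 and 1555 TPM in controls 1 and 2, against 2367, 2286 and 2326 TPM in controls 3, 4 and 5. The sets were far apart relative to the spread within each, with a difference of -0.58, and the 7 deletion libraries gave 1542 to 1669 TPM. H3-3B, a gene for the replacement histone H3.3, had 534 and 458 TPM in controls 1 and 2, against 851, 788 and 866 TPM in controls 3, 4 and 5 (-0.75). ACTG1, which encodes cytoplasmic gamma actin, had 1019.8 and 1033 TPM, against 1761, 1263 and 1383 TPM (-0.50). Similar differences were found for NME2, a nucleoside diphosphate kinase gene (-0.65), SUMO2, which encodes a ubiquitin-like modifier (-0.45), and ATP5PD, which encodes a subunit of mitochondrial ATP synthase (-0.50), all without overlap.

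Other abundant genes of the stretch did not follow the shift. ITGB4, the beta 4 integrin gene of hemidesmosomes, had 583 and 667 TPM in controls 1 and 2, against 569.9, 451 and 619 TPM in controls 3, 4 and 5, and the sets overlapped. P4HB (-0.10), DDX5 (-0.12) and SKA2 (-0.01), which encode a protein disulfide isomerase, an RNA helicase and a spindle protein, also overlapped.

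KPNA2, which encodes an importin, had 192 and 179 TPM in controls 1 and 2, against 504, 308 and 423 TPM in controls 3, 4 and 5. Its difference of -1.12 was larger than that of the stretch. The cell cycle genes BIRC5 and TK1 of distal 17q shared this size. BIRC5, the survivin gene, had 45.1 and 46.2 TPM, against 123, 87.5 and 114 TPM (-1.21). TK1, a thymidine kinase gene of S phase, had 41.8 and 38.4 TPM, against 95.9, 81.2 and 89.7 TPM (-1.13). After transfection KPNA2 (74.7 to 98.7 TPM) and BIRC5 (27.6 to 38.9 TPM) lay below controls 1 and 2. TK1 (56.5 to 72.3 TPM) lay between the sets. Of 8 measured cell cycle and repair genes of distal 17q, 6 were lower without overlap and 3 of them at least 2-fold, with a median of -0.56. The members other than KPNA2, BIRC5 and TK1 differed by -0.57 (UBE2O) to 0.16 (CDK3). Of all 372 genes of the stretch, 61.6% were lower without overlap and 10 genes at least 2-fold, beside 22.5% and 0.853% of all genes tested.

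Counts for genes of the other roles in distal 17q stand beside the 61.6% of the whole stretch that was lower without overlap. Nothing is read from differences between such short lists. Of 22 metabolic and mitochondrial genes, 18 were lower without overlap, with a median of -0.68. The mitochondrial ribosome genes MRPL38 and MRPL12 differed by -0.9999 and -0.92. Of 14 chromatin and transcription genes, 11 were lower without overlap (median -0.53), among them the Polycomb gene CBX8 (-0.90) and the hydroxylase gene JMJD6 (-0.90). Of 20 signalling genes, 11 were lower without overlap (median -0.28), with the adaptor gene GRB2 at 61.6 and 61.9 TPM, against 100, 100.9 and 96.7 TPM. Of 8 genes for secreted, matrix and cytoskeletal proteins, 3 were lower without overlap and the median was -0.13.

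A minority of distal 17q genes were higher in controls 1 and 2. SOX9, an epithelial transcription factor gene, had 28.7 and 24.6 TPM in controls 1 and 2, against 12.8, 22.8 and 10.99 TPM in controls 3, 4 and 5. DLX4 and DLX3, a pair of neighbouring homeobox genes, differed by 1.17 and 0.88 at levels below 5 TPM. FAM20A, which encodes a pseudokinase of the secretory pathway, and SDK2, a cell adhesion gene, had the largest such differences of protein-coding genes (1.67 and 1.39), again below 5 TPM in each library. The pseudogene RN7SL800P, one of many near-identical copies, was listed at 0 in controls 3 to 5 and is uncertain, as is the small nucleolar RNA host gene SNHG25 (-1.39), whose levels of 5.47 and 1.47 TPM in controls 1 and 2 differed from each other about as much as from the other set. TRIM25 and RNF213, interferon-induced ubiquitin ligase genes, were also among those higher, with differences of 0.66 and 0.79.

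The largest differences outside distal 17q were in interferon-induced genes. Of 43 measured genes of the interferon list, 42 were at least 2-fold higher in controls 1 and 2 without overlap, with a list median of 2.84 against -0.04 over all genes. The same count took in 2.33% of all genes tested. IFI27 alone was not counted, because the sets overlapped. Of the 12 named genes with the largest positive difference, 11 are known interferon targets and the other is the chemokine gene CCL2.

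MX1, which encodes a GTPase that blocks viral replication, had 427 and 403 TPM in controls 1 and 2, against 1.66, 129 and 5.71 TPM in controls 3, 4 and 5, or 415 ± 17.6 TPM (SD, n = 2) against 45.4 ± 72.2 TPM (SD, n = 3). The large spread of the second set comes from control 4 alone, which lay between the others and controls 1 and 2. IFIT1, a sensor gene for foreign RNA, repeated this order with 264 and 254 TPM, against 3.88, 106 and 18.1 TPM. IFI6 had 651 and 519 TPM, against 3.15, 290.1 and 10.8 TPM.

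In all 43 genes of the list control 4 was the highest of its set, and in 41 control 3 was the lowest. The summed level of the 42 genes was 8552 and 8232 TPM in controls 1 and 2, against 682, 4050.0 and 1112 TPM in controls 3, 4 and 5. In the same order the deviations of the list from the mean of the 5 controls were 1.72 and 1.72, against -2.51, 0.50 and -1.48. The order along the list was therefore controls 1 and 2 together, then control 4, control 5 and control 3, whereas on distal 17q controls 3 and 5 were alike at 0.23 and control 4 was at 0.09.

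**Figure D3:**
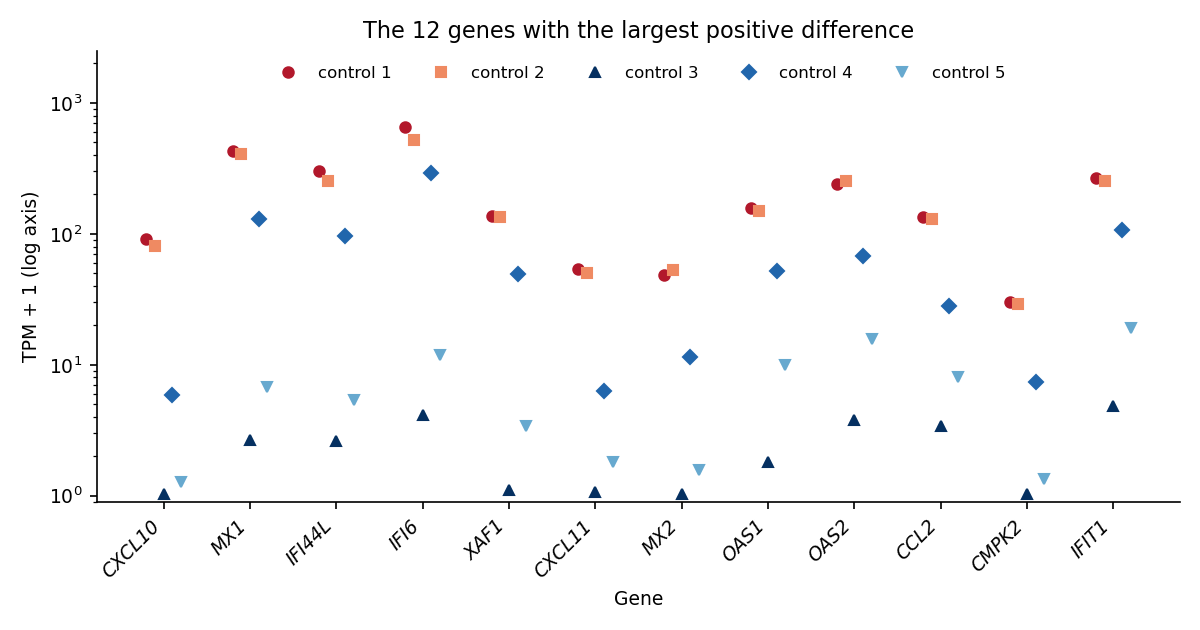
TPM + 1 on a log axis for the 12 named genes with the largest positive difference, in each of the 5 controls. Controls 1 and 2 nearly coincide, control 4 lies below them at every gene, and controls 3 and 5 lie lowest.

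Promoters of 4 of these genes are shown because they hold letters of the interferon-stimulated response element, the DNA element bound by the complex that includes STAT2 and IRF9. The letters are the 250 bases before the gene start from RefSeq (GRCh38.p14), and capitals mark matches, on either strand, to GAAA followed by any 2 bases and GAAA again. IFIT1 lies at chr10:89392373-89392622 (plus strand), IFI6 at chr1:27672193-27672442 (minus strand), IFI44L at chr1:78620198-78620447 (plus strand) and CXCL10 at chr4:76023498-76023747 (minus strand).
IFIT1: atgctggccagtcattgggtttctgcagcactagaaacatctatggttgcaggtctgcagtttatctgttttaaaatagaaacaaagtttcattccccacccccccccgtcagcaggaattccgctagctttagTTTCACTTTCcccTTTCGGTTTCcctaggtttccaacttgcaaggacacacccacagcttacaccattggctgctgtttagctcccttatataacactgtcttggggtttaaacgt
IFI6: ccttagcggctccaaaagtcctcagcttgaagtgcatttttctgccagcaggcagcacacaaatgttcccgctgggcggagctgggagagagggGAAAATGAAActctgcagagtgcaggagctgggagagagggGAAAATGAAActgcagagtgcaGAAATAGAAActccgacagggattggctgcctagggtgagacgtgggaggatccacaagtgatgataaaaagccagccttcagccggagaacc
IFI44L: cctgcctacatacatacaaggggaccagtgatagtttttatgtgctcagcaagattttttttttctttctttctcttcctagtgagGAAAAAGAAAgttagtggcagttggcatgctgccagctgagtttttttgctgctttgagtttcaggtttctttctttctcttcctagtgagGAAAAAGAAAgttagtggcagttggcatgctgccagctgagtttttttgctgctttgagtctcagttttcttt
CXCL10: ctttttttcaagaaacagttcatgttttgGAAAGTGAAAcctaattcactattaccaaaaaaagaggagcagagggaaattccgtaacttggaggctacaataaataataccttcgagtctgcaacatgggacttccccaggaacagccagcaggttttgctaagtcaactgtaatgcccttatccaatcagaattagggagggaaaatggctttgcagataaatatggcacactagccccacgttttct

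IFIT1 and IFI44L each hold 2 matches, IFI6 holds 3 and CXCL10 holds 1. These letters were found in 20 of the 35 interferon list genes with a promoter window (57.1%), and in 839 of all 27305 promoter windows (3.07%). Among genes higher in controls 1 and 2 but outside the list, 20 of 174 with a window held it (11.5%), and among the lower genes 3 of 63 (4.76%). The windows of MX1, OAS1, XAF1, CXCL11 and CMPK2 hold no match to these letters, which says nothing about other forms of the element.

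By role in the pathway, the interferon genes examined, other than IFNE, were near or at 0 in the 5 controls. IFNB1, the interferon beta gene, had 0.12 and 0.14 TPM in controls 1 and 2, against 0, 0.05 and 0 TPM in controls 3, 4 and 5, and the lambda interferon genes IFNL1, IFNL2 and IFNL3 reached at most 0.20 TPM in any control. IFNE, an epithelial interferon gene, had 10.7 and 9.41 TPM, against 5.00, 16 and 5.76 TPM, with control 4 the highest. The HOXA13 and eGFP libraries, in which the interferon list was also high, contrasted with this: IFNB1 had 34.5 to 56.7 TPM with HOXA13 and 33.1 to 41.6 TPM with eGFP.

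Of 6 interferon receptor genes, 5 were higher without overlap, by 0.24 to 0.72, beside 15.2% of all genes. IFNGR2, a chain of the interferon gamma receptor, had 139 and 132 TPM in controls 1 and 2, against 53.7, 97.8 and 104.6 TPM in controls 3, 4 and 5, and its partner IFNGR1 differed by 0.53. IFNAR2, a chain of the receptor for interferons alpha and beta, differed by 0.40, whereas its partner IFNAR1 overlapped (0.43), and the kinase genes JAK1 (0.23) and TYK2 (-0.03) overlapped. The factors downstream differed more. IRF9 had 128 and 135 TPM in controls 1 and 2, against 11.5, 86.0 and 23.4 TPM in controls 3, 4 and 5, and IRF7, an amplifier of interferon production, had 58.2 and 49.8 TPM, against 3.03, 32.9 and 4.61 TPM. IRF3, which is regulated at the protein level, overlapped at 34.9 and 43.9 TPM, against 38.3, 50.5 and 40.5 TPM.

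RIGI and IFIH1, cytoplasmic sensors of viral RNA and themselves interferon targets, differed by 3.07 and 3.16. The DNA sensor gene CGAS overlapped (0.21), as did MAVS (0.02), the adaptor gene of the RNA sensors. STING1, the adaptor gene of CGAS, was higher without overlap at 78.4 and 76.8 TPM, against 42.9, 56.8 and 51.9 TPM.

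MHC class I genes, which present peptides to T cells and respond to interferon, were higher as well. Of 15 measured, 14 were higher without overlap and 8 at least 2-fold, beside 15.2% and 2.33% of all genes. The list median was 1.08. HLA-B had 480.5 and 434 TPM in controls 1 and 2, against 31.7, 258 and 134 TPM in controls 3, 4 and 5. B2M, the shared light chain gene, had 5277 and 5039.8 TPM, against 1255, 3484 and 2159.7 TPM. HLA-F (2.18) and NLRC5 (1.48), the class I transactivator gene, showed the same order of libraries.

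The deletion libraries did not go with controls 1 and 2 here, although they did on distal 17q. At the 42 higher interferon list genes, 0 to 2 per deletion library lay on the side of controls 1 and 2. All 42 did so in each HOXA13 and eGFP library. MX1, for example, had 1.39 to 23.9 TPM in deletion libraries, 814 to 918 TPM with HOXA13 and 821 to 896 TPM with eGFP. Low distal 17q thus stood beside high interferon genes in controls 1 and 2 and beside low ones in the deletion libraries. In the transfected libraries the interferon genes were high, and distal 17q was high relative to all other genes. Relative to the rest of chromosome 17, distal 17q was at 0.06 to 0.13 with HOXA13 and 0.07 to 0.09 with eGFP. By that measure controls 3, 4 and 5 were at 0.30, 0.13 and 0.31, and controls 1 and 2 at -0.11 and -0.12.

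CCL2, a monocyte chemoattractant gene, belonged to the largest differences but followed another pattern. It had 134 and 129.7 TPM in controls 1 and 2, against 2.38, 27.0 and 7.11 TPM in controls 3, 4 and 5. Unlike the interferon list, it stayed low after transfection, at 5.27 to 7.47 TPM with HOXA13 and 8.93 to 10.3 TPM with eGFP. Of 19 genes of NF-kB and cytokine signalling, 12 were higher without overlap and 4 at least 2-fold (median 0.58), including IL6 (1.70), CCL20 (1.62) and the feedback inhibitor gene TNFAIP3 (1.10). The same shares of all genes were 15.2% and 2.33%.

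All 9 measured genes of the acute phase and epithelial defence list were at least 2-fold higher, beside 2.33% of all genes. The list median was 2.05. S100A9, a gene for one chain of calprotectin, had 1447 and 1306 TPM in controls 1 and 2, against 28.2, 310.4 and 627 TPM in controls 3, 4 and 5. Its partner S100A8 had 285 and 219.6 TPM, against 3.47, 52.0 and 113 TPM. For this pair control 5, not control 4, was nearest to controls 1 and 2, and the transfected libraries were low, with S100A9 at 25.6 to 54.0 TPM with HOXA13 and 31.95 to 41.5 TPM with eGFP. SAA1, the serum amyloid A gene, had 469.9 and 462 TPM, against 51.5, 192 and 197 TPM. Complement factor B (CFB, 2.71) followed the interferon order instead, with 22.5 and 21.9 TPM, against 1.22, 6.70 and 1.59 TPM.

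Genes of the epithelial state differed to a lesser degree. Their counts stand beside the 15.2% of all genes higher without overlap and the 2.33% also at least 2-fold higher. Of 22 basal epithelial genes, 12 were higher without overlap and 3 at least 2-fold, with a median of 0.47. TP63 had 117 and 112 TPM in controls 1 and 2, against 34.0, 65.5 and 80.8 TPM in controls 3, 4 and 5. CDH3, the P-cadherin gene of basal cells, had 122 and 143 TPM, against 67.9, 48.0 and 42.0 TPM. Of 20 laminin and basement membrane genes, 11 were higher without overlap (median 0.55). LAMA1, a laminin chain gene, had 11 and 9.47 TPM, against 0.10, 2.13 and 0.30 TPM, and was also present in the deletion libraries at 7.31 to 17.3 TPM.

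The lists that follow stand beside the same shares, 15.2% and 2.33% of all genes. Of 10 Notch genes, 6 were higher without overlap, with a median of 0.53 that became 0.84 without control 4. The receptor gene NOTCH3 had 4.26 and 5.57 TPM, against 0.45, 0.24 and 0.56 TPM, and the deletion libraries resembled controls 1 and 2 with 5.69 to 24.5 TPM. NOTCH3, one of the 6, passed the filter only through controls 1 and 2, so it could only be counted as higher. The ligand gene DLL1 had 18.03 and 15.03 TPM, against 2.86, 7.36 and 7.25 TPM. Of 21 genes of mesenchymal transition, 10 were higher without overlap and 7 at least 2-fold. The 7 include THY1 (1.49), the collagen genes COL6A2 (1.49), COL6A1 (1.36) and COL5A1 (1.25), and LOXL2 (1.27), a matrix crosslinking enzyme gene. COL6A2 was low, at most 2.73 TPM in a control. It and POSTN, also among the 7, were below 1 TPM in all of controls 3 to 5. Both therefore passed the filter only through controls 1 and 2 and could only be counted as higher without overlap. TWIST1 (-0.42) and ACTA2 (-0.36) were the 2 that were lower without overlap. Among the genes whose sets overlapped were VIM (-0.0002), CDH2 (0.05), ZEB1 (0.21) and SPARC (-0.08). The list median of 0.52 became 0.27 without control 4. In the hypoxia and glycolysis list 12 of 25 were higher without overlap (median 0.45), among them CA9 (1.78), a carbonic anhydrase gene, and NDRG1 (1.50), which had 1214 and 1382 TPM, against 237, 593 and 676 TPM.

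Of 25 proliferation genes, 18 were lower without overlap, beside 22.5% of all genes. None was at least 2-fold lower, and the median was -0.51. The other 7 overlapped, and all of them act in DNA replication: MCM2, MCM3, MCM4, MCM5, MCM6 and MCM7, the subunits of the replicative helicase, and PCNA, the polymerase clamp, with differences of -0.12 to 0.20. AURKA, a mitotic kinase gene, had 56.3 and 55.6 TPM in controls 1 and 2, against 131, 87.0 and 108 TPM in controls 3, 4 and 5. CDC20, which activates the anaphase-promoting complex, had 147 and 132 TPM, against 354, 199.96 and 224 TPM. Neither gene lies on chromosome 17. The part of growth rate in the distal 17q cell cycle genes was not tested.

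**Figure D4:**
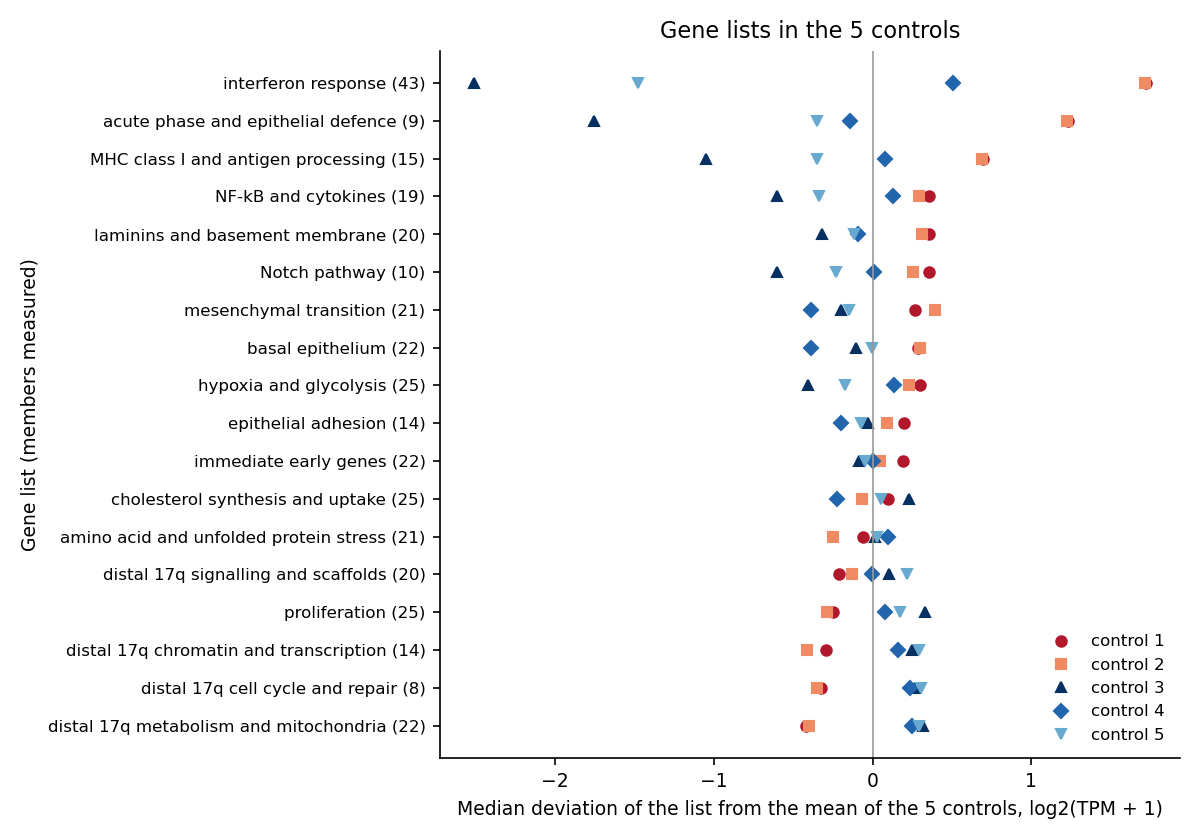
Median deviation of each gene list from the mean of the 5 controls, in log2(TPM + 1), with 1 point per library and the number of measured genes in brackets. The interferon list spans 1.72 in controls 1 and 2 to -2.51 in control 3, with control 4 at 0.50. In the distal 17q metabolism list controls 3, 4 and 5 lie between 0.25 and 0.32, and in the distal 17q signalling list they spread between -0.0026 and 0.22.

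The genes with the largest negative differences outside distal 17q had varied roles. NLRP2, a gene of the inflammasome sensor family, was listed at 0 TPM in both controls 1 and 2, against 26.0, 12.7 and 17.02 TPM in controls 3, 4 and 5. It was present in all 13 other RWPE-1 libraries, with 1.05 to 22.2 TPM in deletion libraries, 12.4 to 21.8 TPM with HOXA13 and 15.7 to 16.9 TPM with eGFP. TBX18, a developmental transcription factor gene, had 1.23 and 1.28 TPM, against 12.8, 13.3 and 10.5 TPM, and the deletion libraries (6.33 to 10.1 TPM) and transfected libraries (7.74 to 11.9 TPM) were nearer to controls 3 to 5.

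The neighbouring imprinted genes PEG10, derived from a retrotransposon, and SGCE, the epsilon sarcoglycan gene, were low together. PEG10 had 2.21 and 1.85 TPM in controls 1 and 2, against 22.4, 14.7 and 12.4 TPM in controls 3, 4 and 5. SGCE had 2.15 and 2.55 TPM, against 14.6, 24.5 and 8.33 TPM. All 13 other libraries were nearer to controls 3 to 5 at both genes. Another imprinted gene, the noncoding RNA gene H19, went the other way, with 2283 and 2616 TPM, against 446.5, 764 and 676 TPM (1.99). Of 11 imprinted genes measured, 4 were lower and 2 higher without overlap, beside 22.5% and 15.2% of all genes, and nothing is read from so short a list.

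Among the remaining lower genes were SH3BGRL and HMGN5 on chromosome X, with differences of -2.34 and -1.94, the trypsinogen gene PRSS3 (-1.99) and the nitric oxide synthase gene NOS3 (-1.89). SH3BGRL had 2.41 and 2.46 TPM, against 14.6, 12.02 and 24.7 TPM. NOS3 had 0.94 and 1.25 TPM, against 14.6, 1.47 and 11.1 TPM, so control 4 was barely above controls 1 and 2. The pseudogenes SNRPGP14, TMEM167AP2 and BOLA3P3 may share reads with genes of near-identical sequence, and the antisense gene SPON1-AS1 may hold reads of its partner, so their differences are uncertain. SNRPGP14 was listed at 0 in control 2 but at 42.9 TPM in control 1, and TMEM167AP2 at 0 in control 1 but at 23.2 TPM in control 2.

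**Figure D5:**
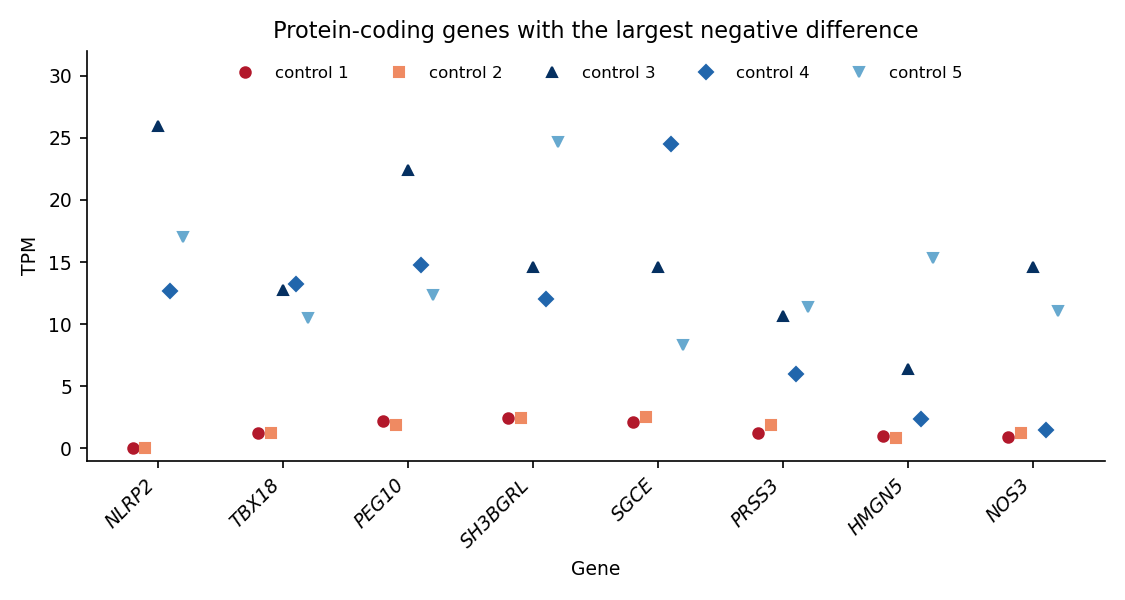
TPM of the 8 protein-coding genes with the largest negative difference outside distal 17q, in each of the 5 controls. Controls 1 and 2 lie at 2.55 TPM or less at every gene, and controls 3 to 5 lie above them with a wide spread.

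The 291 genes outside the interferon list and distal 17q that were higher in controls 1 and 2 were on the side of those libraries for 22.7% to 28.9% of genes in deletion libraries, 57.7% to 59.8% with HOXA13 and 55.7% to 59.5% with eGFP. For the 114 lower genes outside distal 17q the shares were 31.6% to 43.0% in deletion libraries, 32.5% to 36.8% with HOXA13 and 30.7% to 36.0% with eGFP. The gene of the overexpression experiment, HOXA13, was at 0.90 and 0.91 TPM in controls 1 and 2, against 0.92, 2.41 and 0.65 TPM in controls 3, 4 and 5, and the sets overlapped.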

How the data were processed

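RNA-seq of RWPE-1 was made with stranded mRNA kits, per the labels' protocols. The submitters' processing notes name FastQC, Trimmomatic 0.35, STAR 2.5.2b, featureCounts 1.5.1, RSEM 1.3.0, DESeq2 1.14.1 and HiC-Pro 2.8.0, and the build GRCh37, without their order. Which tool made the table is not given in the sources used here, nor is whether reads were assigned by strand. The deposited table gives TPM, which the authors scaled so that all libraries share a total, so a gain of some genes lowers the others. The deposited Hi-C file gives raw counts of read pairs for every pair of 40 kb bins, and pools the 2 Hi-C replicates. Its bins were placed on chromosomes by GRCh37 lengths, and only contacts with chromosome 1 and part of chromosome 2 were used here. The authors' own comparison tables and the C4-2B libraries were not used here.

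Members and lists were chosen with earlier results of these data known, and no test was run on the division. Genes with TPM of at least 1 in at least 2 of 5 controls were kept, and log2(TPM + 1) was averaged within each set. Of these 14537 genes, 14253 matched a symbol and 13198 a RefSeq chromosome (GRCh38.p14), which was used for gene order and promoter letters only. Windows held about 60 genes. The 33 gene lists held 609 entries, of which 606 matched the table. Named outside distal 17q are the 12 largest differences either way among named genes without overlap and with at least 5 TPM in the higher set. Named in distal 17q are the 12 with the highest TPM and the 5 with the largest differences, and in each list up to 4 members with the largest differences. Some genes that met these rules are not reported here. The interferon pathway genes outside the lists, TRIM25, RNF213, DLX3, DLX4, COL5A1 and HOXA13, and some list members such as STING1 and B2M, were added for their role after their values were seen. Python 3.11.15, numpy 2.4.6, pandas 2.3.3 and matplotlib 3.10.9 were used. The procedure was tested on simulated libraries with known shifts. Alternatives were the added 1, the filter, scaling, each control left out, window size and fold limit.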

Additional observations from a re-analysis of the deposited data

Results flagged for a closer look

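Values were checked for a library far from the others of its group, relative to the range of the group, in 88 sets of 5 or 7 libraries. Chance marks about 1 in 20 sets that were not chosen by their values, and 8 were found here. The named genes and the stretches were chosen by their values, so that rate does not apply to them. Chromosome stretches other than distal 17q were chosen after their values were seen.

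Control 4 was low on chromosome 22. Relative to all other genes, the median of its 321 tested genes was -0.42 in control 4, and between -0.02 and 0.03 in the other controls. Control 5 stood apart on the first pair of windows of chromosome 8 (-0.85, against 0.05 to 0.10 in the other 4), on the last pair of windows of chromosome 8 (0.32, against -0.16 to -0.10) and on the last 3 windows of chromosome 7 (-0.46, against 0.05 to 0.10). On the last pair of windows of chromosome 8 the HOXA13 libraries (0.20 to 0.24) and the eGFP libraries (0.16 to 0.21) lay on the side of control 5.

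In the 7 deletion libraries, deletion library 4 was the lowest on distal 17q at -0.24, with the others between -0.22 and -0.21. It was the highest at the long-arm end of chromosome 5 at -0.24, with the others between -0.29 and -0.27. The 5 controls lay at 0.15 to 0.22 on that stretch of chromosome 5.

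The pseudogenes SNRPGP14 and TMEM167AP2 were each listed at 0 in a single control, control 2 for the first and control 1 for the second. The other controls had log2(TPM + 1) values of 5.46 to 5.90 for SNRPGP14 and 4.60 to 5.66 for TMEM167AP2.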

How the results depend on the processing

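The number of genes at least 2-fold apart without overlap was 462, became 731 with 0.1 added to TPM in place of 1 and 1267 at a 1.5-fold limit, and lay between 462 and 641 with a control left out. The distal 17q median of -0.45 became -0.20 with every gene above 0 in 1 control kept and lay between -0.50 and -0.40 with a control left out. Windows without overlap numbered 48, and 92 with median-ratio scaling, 113 with windows of 30 genes, 23 with windows of 100 genes and 62 to 147 with a control left out. Relative to the rest of chromosome 17 in place of the genome, distal 17q was at -0.17 in deletion, 0.10 in HOXA13 and 0.077 in eGFP libraries. The Hi-C ratio was 0.917 by means and 0.995 with chromosome 2.

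Among the list medians whose sets did not overlap, the neuroendocrine list turned its sign, at -0.021 with the filter removed. Lists with medians near 0 and overlapping sets also crossed 0 under at least 1 alternative: luminal, mitochondrially encoded, cholesterol, fatty acid, NRF2, Wnt and TGF-beta, and imprinted genes. The squamous list gave 1.18 with 0.1 added, 0.083 with no filter and 2.05 with a filter of 5 TPM. With no filter the immune list gave 0.76 and acute phase 1.26. With 5 TPM, distal 17q signalling gave -0.43, luminal 0.80, neuroendocrine 1.65, mesenchymal 0.39 and epithelial adhesion 0.38. With median-ratio scaling, distal 17q cell cycle gave -0.51 and metabolism -0.63. With a control left out, the range was 0.082 to 0.27 for immediate early genes, -0.046 to 0.21 for mitochondrially encoded genes, 0.19 to 0.37 for epithelial adhesion, 0.27 to 0.54 for mesenchymal, 1.64 to 2.95 for acute phase, -0.22 to -0.037 for p53 targets, -0.33 to -0.15 for amino acid stress, 0.44 to 0.84 for Notch and -0.72 to -0.68 for distal 17q metabolism. The cause of these shifts was not tested. Of 406 values of named genes under the alternatives, 377 moved by less than the spread between libraries and 29 moved further. Of the named genes, SKA2 (-0.0085, up to 0.045) and P4HB (-0.10, but 0.049 without control 1), whose sets overlap, changed sign. No paired analysis was possible because all 5 libraries belong to one labelled group and no test was run. With 2 libraries against 3 and no read counts, the precision of low genes is unknown.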
